A study of Mus musculus with 10 samples.

Results

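The genes described here are 10 genes of the contractile cytoskeleton, namely Acta2, Actg2, Tagln, Cnn1, Cnn2, Myl9, Tpm1, Tpm2, Lmod1 and Cald1, taken by symbol from a table of 40620 mouse genes. All 10 were found, each as 1 row. They were measured by RNA-seq in MC3T3-E1, a pre-osteoblast line from mouse of which Subclone 4, a single clone, was grown, at 5 stages with 2 replicates (A and B) per stage. Subconfluent and confluent cells were in growth medium with 10% serum, and the cells of the later stages (24h, 14d and 21d) were kept in differentiation medium, with the same serum plus β-glycerophosphate at 10 mM and ascorbic acid at 50 µg/ml. The question the stages address is how expression changes as these cells differentiate into osteoblasts.

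Actin filaments and myosin II form the contractile stress fibres of a spread cell. Tropomyosins run along the filament, caldesmon and calponins bind it and hold myosin in check, leiomodin starts new filaments, and phosphorylation of the myosin regulatory light chain turns the motor on. In smooth muscle many of these proteins exist in muscle-specific forms. Their genes, not all of them specific to muscle, are driven by serum response factor (SRF) together with myocardin or with the myocardin-related factors (MRTFs). The MRTFs leave monomeric actin and enter the nucleus as filaments assemble. Mesenchymal cells on stiff plastic also use many of these genes, and Acta2 is the usual marker of the myofibroblast.

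Depth was 44736156 to 162939333 counts on genes per sample. Replicates were compared by the log2 ratio of A to B over the 16133 genes that had 10 or more counts in all samples. The SD of this ratio was 0.69 at 24h and 0.29 to 0.33 at the other stages, so the 24h libraries stood apart. The 6 libraries of the first 3 stages and the 4 libraries of 14d and 21d carried different index sequences, so differentiation time and library set cannot be told apart between these sets. The index sequences are shared in confluent against subconfluent, 24h against confluent and 21d against 14d, but the headers do not show that the stages of these comparisons were sequenced in the same run. The labels do not say that the replicates were separate cultures, and the p-values measure only the spread between these samples. All 6 osteoblast markers (Runx2, Sp7, Alpl, Col1a1, Ibsp, Bglap) were above 1 RPKM on average at every stage. RPKM, the deposited unit of level, divides counts by gene length and by the size of the library.

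In the smooth muscle list, Myh11, Des, Myocd and Cnn1 were near 0, and Smtn and Lmod1 were not. Myh11, the smooth muscle myosin heavy chain, was at 0.0821 to 0.411 RPKM, and the intermediate filament gene Des was at 0.193 to 0.605 RPKM. Myocd, the muscle-restricted SRF cofactor, had at most 1 count in any sample and 0 counts in 24h replicate A and in all 14d and 21d samples. Only Smtn and Lmod1 of the 6 smooth muscle markers reached 1 RPKM. The summed level of the 6 was 43.6 to 60.4 RPKM over all samples, and most of it was Smtn, at 36.5 to 54.5 RPKM. None of the 5 endothelial markers reached 1 RPKM at any stage, and their sum was 0.00821 to 0.107 RPKM. In the pericyte list Cspg4 and Pdgfrb passed 1 RPKM and the sum of 5 genes was 38.4 to 88.6 RPKM. In the macrophage list 2 of 5 genes passed it, with a sum of 13.2 to 19.2 RPKM. Of the skeletal muscle list only Acta1 did.

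All 10 genes had lower fitted values at 21d than in subconfluent cells, and 9 of them fell at an adjusted p under 0.05, beside 50.7% of all genes that changed in either direction. Acta2, Actg2, Myl9 and Tpm1 carried the largest falls, 2.58 to 4.52-fold, and Tpm2 fell 2.11-fold. The ubiquitous actins Actb and Actg1 fell 2.87-fold and 2.37-fold. For Acta2, Actg2, Cnn2, Myl9, Tpm1, Tpm2 and Lmod1 most of the decline in mean RPKM lay between 24h and 14d. RPKM ran low at 14d: against confluent cells the middle gene stood at -0.17 on log2(RPKM + 0.1) and at 0.03 in edgeR. For Cnn2 the larger step in edgeR came after 14d. Its log2 fold changes against confluent cells were 0.25 at 24h and -0.14 at 14d (adjusted p = 0.21 and 0.34). From 14d to 21d it was -0.62 (adjusted p = 0.011 in edgeR). In the plot of levels by sample, 7 genes (Acta2, Actg2, Cnn2, Myl9, Tpm1, Tpm2 and Lmod1) had all 4 samples of 14d and 21d below all 6 earlier samples in RPKM. The same held for 4426 of 20795 genes, or 21.3%. In bulk RNA, fewer cells with these transcripts and less of them per cell cannot be told apart.

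**Figure D1:**
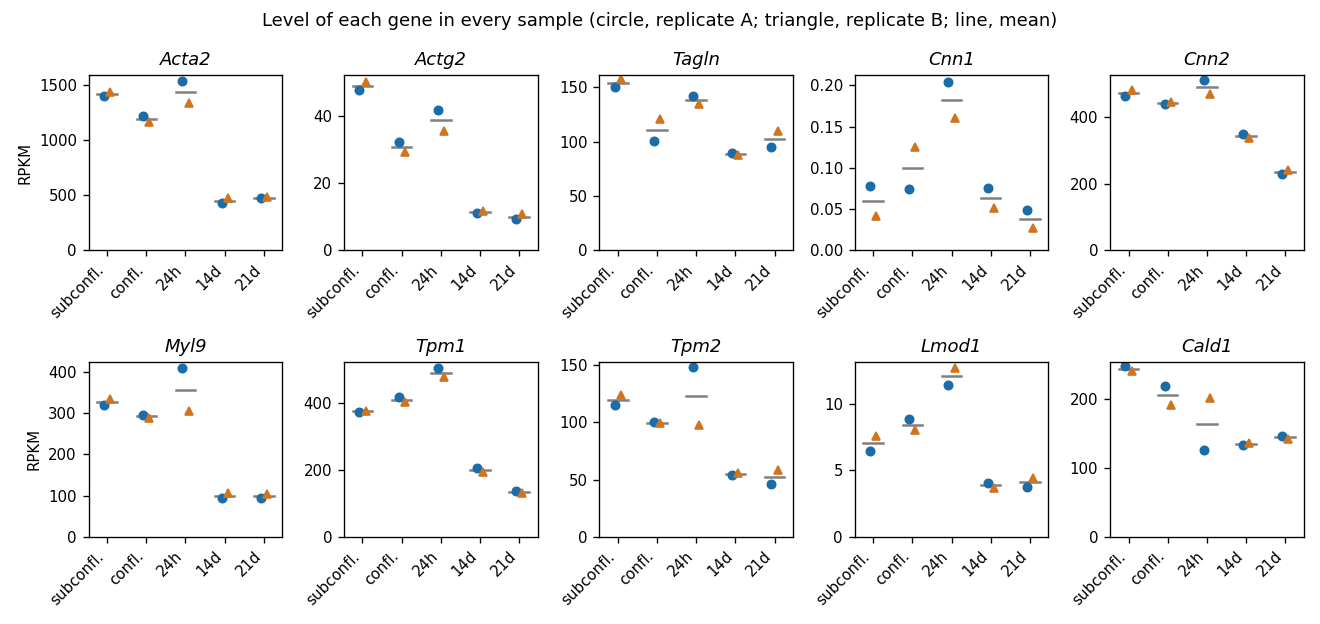
RPKM (vertical axis, linear from 0, scaled to each gene) of the 10 genes at the 5 stages (horizontal axis), with circles for replicate A, triangles for replicate B and a line for their mean. Acta2 sits at 1161 to 1536 RPKM in the first 3 stages and at 425 to 485 RPKM at 14d and 21d, whereas Tagln and Cald1 overlap between early and late stages and Cnn1 stays at or below 0.204 RPKM.

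The sequence before their start sites is shown for 4 of the genes: the 2 with an exact CArG box, the site to which SRF binds (CC, a run of A or T letters, then GG), and Acta2 and Tpm1, which fell more than 2-fold and hold near matches. The 250 bases before the RefSeq start site on GRCm38.p6 are given 5′ to 3′, and capitals mark the CArG box or a match with 1 letter off.
Acta2, chr19:34255374-34255623, minus strand: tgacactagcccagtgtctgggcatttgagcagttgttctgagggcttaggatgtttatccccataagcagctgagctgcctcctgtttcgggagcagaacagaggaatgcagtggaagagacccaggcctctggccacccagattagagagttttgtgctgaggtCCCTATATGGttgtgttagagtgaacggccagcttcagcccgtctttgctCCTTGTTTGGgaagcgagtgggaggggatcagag
Tpm1, chr9:67049214-67049463, minus strand: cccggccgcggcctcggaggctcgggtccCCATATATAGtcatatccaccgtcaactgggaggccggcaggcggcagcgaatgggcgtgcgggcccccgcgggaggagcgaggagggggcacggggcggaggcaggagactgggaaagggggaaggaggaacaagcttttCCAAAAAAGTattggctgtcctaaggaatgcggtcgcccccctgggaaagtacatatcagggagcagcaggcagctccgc
Cnn2, chr10:79988350-79988599, plus strand: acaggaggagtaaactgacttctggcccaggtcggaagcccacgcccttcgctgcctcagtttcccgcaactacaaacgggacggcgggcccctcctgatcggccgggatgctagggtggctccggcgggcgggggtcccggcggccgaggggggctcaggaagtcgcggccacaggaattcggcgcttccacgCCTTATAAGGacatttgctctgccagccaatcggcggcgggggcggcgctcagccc
Myl9, chr2:156775214-156775463, plus strand: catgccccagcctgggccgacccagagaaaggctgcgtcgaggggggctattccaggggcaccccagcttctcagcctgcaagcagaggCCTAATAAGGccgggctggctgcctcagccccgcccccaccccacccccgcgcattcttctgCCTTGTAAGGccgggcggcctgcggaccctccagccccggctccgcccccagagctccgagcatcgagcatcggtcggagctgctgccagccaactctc

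Of the 10 genes, 8 had a promoter window. An exact CArG box was found in 2 of the 8, starting 56 bases before the start site of Cnn2 and 161 bases before that of Myl9. The same box is in 1.47% of 32851 mouse promoter windows of 250 bases. Allowing 1 letter off, 6 of the 8 genes held a match, with Acta2 at 84 and 34 bases, Tpm1 at 221 and 80 bases, Lmod1 at 189 and 164 bases and Cald1 at 203 bases before the start. Cald1 has 2 windows, the other without a match, so that 9 windows were searched for the 8 genes. This looser search was added after the sequences had been seen, and 18.6% of all windows hold such a match. CATTCC, the core of the site for TEAD factors, was found on either strand in 4 of the 8 genes and in 12.6% of all windows. The windows of Cnn1 and Tpm2 held none of the 3. Tagln and Actg2 were not matched to a window. Matches are letters only, and each search covered both strands.

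Acta2 encodes smooth muscle α-actin, the most abundant of the 10 transcripts, and lies on the minus strand at chr19:34241090-34255590 (GRCm38). Its level was 1401 and 1433 RPKM in subconfluent cells, 1220 and 1161 RPKM in confluent cells, 1536 and 1332 RPKM at 24h, 425 and 471 RPKM at 14d, and 469 and 485 RPKM at 21d. The 2 late stages overlapped each other, as did 24h and subconfluent cells, and no late sample came near an early one. Against confluent cells, 14d was lower by 2.29-fold (log2 fold change -1.19, SE 0.13, adjusted p = 6.9e-04 by edgeR's quasi-likelihood test). From 14d to 21d the log2 fold change was 0.02 (SE 0.13, adjusted p = 0.98). Over the whole course, 21d against subconfluent, Acta2 fell 2.74-fold (adjusted p = 9.9e-05 in edgeR).

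Actg2 encodes the enteric smooth muscle γ-actin, at chr6:83512905-83536265. It had 47.7 and 50.3 RPKM in subconfluent cells, 32.4 and 29.2 RPKM in confluent cells, 41.8 and 35.7 RPKM at 24h, 11.1 and 11.8 RPKM at 14d, and 9.21 and 10.7 RPKM at 21d. No 2 stages next to each other in this order of level overlapped, and Actg2 stepped down at confluence as well as at 14d. It fell 1.62-fold at confluence (log2 fold change -0.70, SE 0.13, adjusted p = 0.041 in edgeR), the only one of the 10 to pass edgeR's test in that comparison. At 14d it was 2.31-fold below confluent cells, and at 21d it was 4.52-fold below subconfluent cells (log2 fold change -2.18, SE 0.14, adjusted p = 2.3e-05 in edgeR), the largest change among the 10. Actg2 stood at 3.40% and 3.51% of the RPKM of Acta2 in subconfluent cells and at 1.96% and 2.21% at 21d, with values of 2.50% to 2.72% at the stages between. With any 1 sample of the 4 stages other than 24h left out, the adjusted p for Actg2 at confluence was 0.073 to 0.30, at log2 fold changes of -0.77 to -0.62.

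Reads of 51 bases can separate these actins, and a stretch of their coding sequence shows how. The window below holds the longest run that Acta2 and Actg2 share, 29 bases, and capitals mark letters that differ from Acta2 at the same place. The sequences are from GENCODE vM21 transcripts.
Acta2, coding bases 622 to 681: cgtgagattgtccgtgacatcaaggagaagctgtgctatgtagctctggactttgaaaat
Actg2, coding bases 619 to 678: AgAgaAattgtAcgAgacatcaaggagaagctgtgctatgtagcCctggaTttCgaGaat
Acta1, coding bases 622 to 681: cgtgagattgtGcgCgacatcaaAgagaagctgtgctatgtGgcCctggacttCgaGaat

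Actg2 differs from Acta2 at 9 of these 60 bases and Acta1, skeletal α-actin, at 7. Over the whole coding sequence, Actg2 was 83.8% identical to Acta2. No 51-base window of the Acta2 transcript was within 2 mismatches of Actg2, and 1.4% of its windows were within 2 mismatches of Actg1. For Actg2 the closest paralog was Actc1, at 3.8% of windows.

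The other actins fell as well. Actb, cytoplasmic β-actin and a common reference gene for quantitative PCR, had 1375 and 1368 RPKM in subconfluent cells, 1227 and 1209 RPKM in confluent cells, 1292 and 984 RPKM at 24h, 549 and 521 RPKM at 14d, and 443 and 441 RPKM at 21d. These values were rebuilt from its counts, since the row was absent from the deposited RPKM table. Actb fell 2.87-fold from subconfluent cells to 21d (log2 fold change -1.52, SE 0.16, adjusted p = 2.0e-04 in edgeR). Actg1, cytoplasmic γ-actin, went from 1638 and 1677 RPKM to 644 and 648 RPKM, a fall of 2.37-fold (adjusted p = 4.7e-04). Acta1 went from 42.8 and 43.6 RPKM to 14.3 and 14.4 RPKM. Of the 51-base windows of Acta1, 1.9% were identical to Actb and 6.4% were within 2 mismatches of it. Subconfluent replicate A had 353996 counts of Actb and 6286 of Acta1, and the part of Actb reads in the Acta1 level was not tested. Acta2 held a similar share of the summed RPKM of the 6 actins early and late, 31.2% ± 0.174 (SD, n = 2) before confluence, 31.0% ± 0.127 at confluence and 30.0% ± 0.447 at 21d. The share was 36.3% ± 1.82 at 24h and 25.8% ± 1.72 at 14d, the highest and lowest of the 5 stages, and these 2 stages did not overlap any other.

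**Figure D2:**
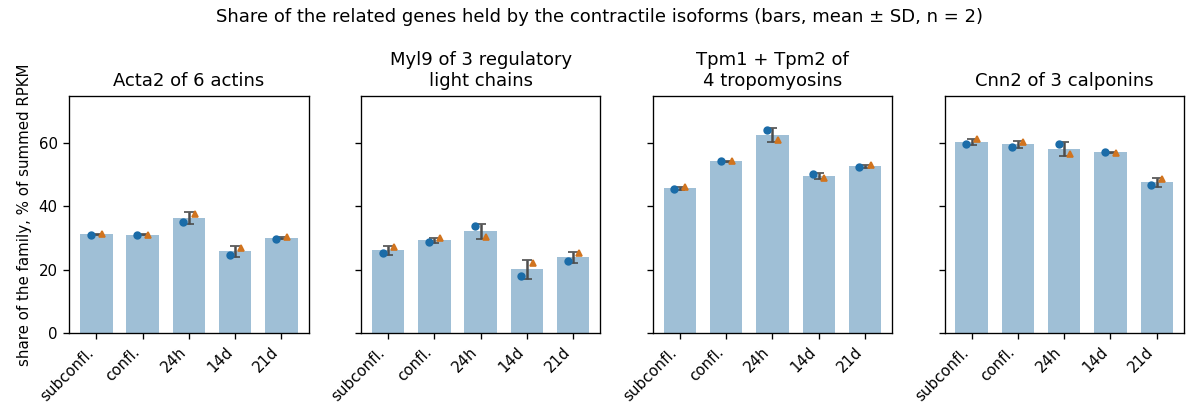
Share of summed RPKM (vertical axis, percent, from 0) held by Acta2 among 6 actins, by Myl9 among 3 regulatory light chains, by Tpm1 and Tpm2 among 4 tropomyosins and by Cnn2 among 3 calponins, at the 5 stages. Bars are means, error bars SD of 2 replicates, circles replicate A and triangles replicate B. The Acta2 share stays between 25.8% and 36.3% on average, and the Cnn2 share drops to 47.6% at 21d.

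Myl9 encodes the regulatory light chain of smooth muscle and non-muscle myosin II, at chr2:156775420-156781658. It had 319 and 335 RPKM in subconfluent cells, 296 and 289 RPKM in confluent cells, 409 and 304 RPKM at 24h, 94.6 and 106 RPKM at 14d, and 94.8 and 105 RPKM at 21d. The 14d and 21d samples overlapped and lay far under the earlier ones. The fall from confluent cells to 14d was the largest of the 10 in that comparison, 2.51-fold (log2 fold change -1.33, SE 0.18, adjusted p = 0.0016 in edgeR), and 21d was 3.01-fold below subconfluent cells (adjusted p = 2.7e-04). The 2 related light chains, Myl12a and Myl12b, fell 2.97-fold and 2.26-fold from subconfluent cells to 21d. They share 51-base windows with each other, 21.6% of those of Myl12a within 2 mismatches, and only 0.8% of the windows of Myl9 came as close to Myl12a. The share of Myl9 among the 3 was 26.2% ± 1.43 in subconfluent cells, 29.3% ± 0.817 in confluent cells, 32.1% ± 2.36 at 24h, 20.1% ± 3.0 at 14d and 23.9% ± 1.82 at 21d (SD, n = 2).

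Tpm1 and Tpm2 encode α- and β-tropomyosin, at chr9:67022590-67049406 and chr4:43514711-43523765. Tpm1 had 373 and 375 RPKM in subconfluent cells, 416 and 403 RPKM in confluent cells, 504 and 476 RPKM at 24h, 205 and 194 RPKM at 14d, and 136 and 132 RPKM at 21d. It was the most abundant of the tropomyosins at confluence and at 24h, its stages did not overlap, and it went on falling after 14d. At 14d it was 1.77-fold below confluent cells (adjusted p = 0.0011 in edgeR), at 21d 1.57-fold below 14d (log2 fold change -0.65, SE 0.10, adjusted p = 0.007), and at 21d 2.58-fold below subconfluent cells (adjusted p = 3.9e-05). Without any 1 of the 4 samples of 14d and 21d, the adjusted p of the step from 14d to 21d for Tpm1 was 0.068 to 0.077.

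Tpm2 had 115 and 124 RPKM in subconfluent cells, 100 and 99.5 RPKM in confluent cells, 148 and 97.6 RPKM at 24h, 54.4 and 55.5 RPKM at 14d, and 46.2 and 58.2 RPKM at 21d. The 24h replicates spanned the other early samples, and the late stages overlapped. At 14d its log2 fold change against confluent cells was -0.65 (SE 0.22, adjusted p = 0.059), and at 21d Tpm2 was 2.11-fold below subconfluent cells (adjusted p = 0.0053 in edgeR). Tpm3 and Tpm4, the other tropomyosin genes, fell 3.11-fold and 3.27-fold from subconfluent cells to 21d. The joint share of Tpm1 and Tpm2 in the RPKM of the 4 tropomyosins was 45.7% ± 0.439 in subconfluent cells and was higher at each later stage, at 54.2% ± 0.107, 62.6% ± 2.11, 49.7% ± 0.938 and 52.7% ± 0.464 (SD, n = 2). No 51-base window of Tpm1 or Tpm2 came within 2 mismatches of another tropomyosin. The rows of Tpm1 and Tpm2 do not separate the transcripts of each gene.

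The calponins differed widely in level. Cnn1, the smooth muscle calponin at chr9:22099216-22109630, had 0.0781 and 0.0410 RPKM in subconfluent cells, 0.0747 and 0.125 RPKM in confluent cells, 0.204 and 0.161 RPKM at 24h, 0.0753 and 0.0513 RPKM at 14d, and 0.0484 and 0.0265 RPKM at 21d. These values stand on 3 to 41 counts per sample, and its 5-stage test passed (adjusted p = 0.044 in edgeR) while none of the 5 comparisons of pairs of stages that were fitted did. Cnn2, the calponin of non-muscle cells at chr10:79988584-79996062, had 464 and 482 RPKM in subconfluent cells, 438 and 444 RPKM in confluent cells, 513 and 469 RPKM at 24h, 350 and 338 RPKM at 14d, and 229 and 241 RPKM at 21d. Both 14d samples of Cnn2 lay above both 21d samples. At 14d the log2 fold change against confluent cells was -0.14 (SE 0.10, adjusted p = 0.34), and between 14d and 21d Cnn2 fell 1.54-fold (log2 fold change -0.62, SE 0.11, adjusted p = 0.011 in edgeR). Without any 1 sample of subconfluent, 14d or 21d cells, the adjusted p of that step for Cnn2 was 0.054 to 0.11. Its share among the calponins was 57.1% to 60.4% on average through 14d and 47.6% ± 1.37 (SD, n = 2) at 21d.

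Lmod1 encodes leiomodin, which nucleates actin filaments, at chr1:135324807-135368065. It had 6.43 and 7.59 RPKM in subconfluent cells, 8.84 and 8.02 RPKM in confluent cells, 11.4 and 12.7 RPKM at 24h, 4.05 and 3.70 RPKM at 14d, and 3.75 and 4.45 RPKM at 21d. Lmod1 climbed from stage to stage up to 24h before it dropped. Its rise of 1.52-fold from confluent cells to 24h (log2 fold change 0.61, SE 0.12, adjusted p = 0.036 in edgeR) was the only one of the 10 to pass in edgeR. With any 1 sample of the other 4 stages left out, that adjusted p for Lmod1 was 0.052 to 0.19. At 14d Lmod1 was 1.87-fold below confluent cells (adjusted p = 0.0018), and at 21d 1.57-fold below subconfluent cells (adjusted p = 0.0036).

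Tagln encodes transgelin (SM22α), an actin-bundling protein, at chr9:45929619-45936058. It had 150 and 158 RPKM in subconfluent cells, 101 and 121 RPKM in confluent cells, 142 and 135 RPKM at 24h, 89.7 and 87.6 RPKM at 14d, and 95.1 and 110 RPKM at 21d. Its levels stayed in a narrow range, and confluent cells overlapped 21d. The log2 fold change at 14d against confluent cells was -0.10 (SE 0.12, adjusted p = 0.56), and from subconfluent cells to 21d Tagln fell 1.38-fold (log2 fold change -0.47, SE 0.12, adjusted p = 0.016 in edgeR). Tagln no longer passed without either subconfluent sample or 21d replicate A (adjusted p = 0.056 to 0.11). Exons of Tagln share bases with Pcsk7 and Gm48529 on the opposite strand, so that 639 of its 1988 annotated exon bases belong to no other gene, and the files give it a length of 694 bases. The strand setting of the counting is not given in the sources used here, so reads of Tagln and of Pcsk7 in the shared bases cannot be told apart, and the level of Tagln is uncertain. Tagln had 2006 to 10694 counts per sample and Pcsk7 2629 to 12891.

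Cald1 encodes caldesmon, at chr6:34598500-34775473, and has the largest deposited gene length of the 10, 7299 bases. It had 248 and 240 RPKM in subconfluent cells, 219 and 191 RPKM in confluent cells, 126 and 202 RPKM at 24h, 133 and 136 RPKM at 14d, and 147 and 142 RPKM at 21d. At 24h the replicates of Cald1 lay far apart, and replicate A lay below all late samples. The row does not separate the transcripts of this gene. Cald1 was the only one of the 10 that did not pass the test over the 5 stages (adjusted p = 0.059 in edgeR). From subconfluent cells to 21d it fell 1.56-fold (log2 fold change -0.64, SE 0.18, adjusted p = 0.021), and without any 1 sample of these 2 stages the adjusted p for Cald1 was 0.055 to 0.10.

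**Figure D3:**
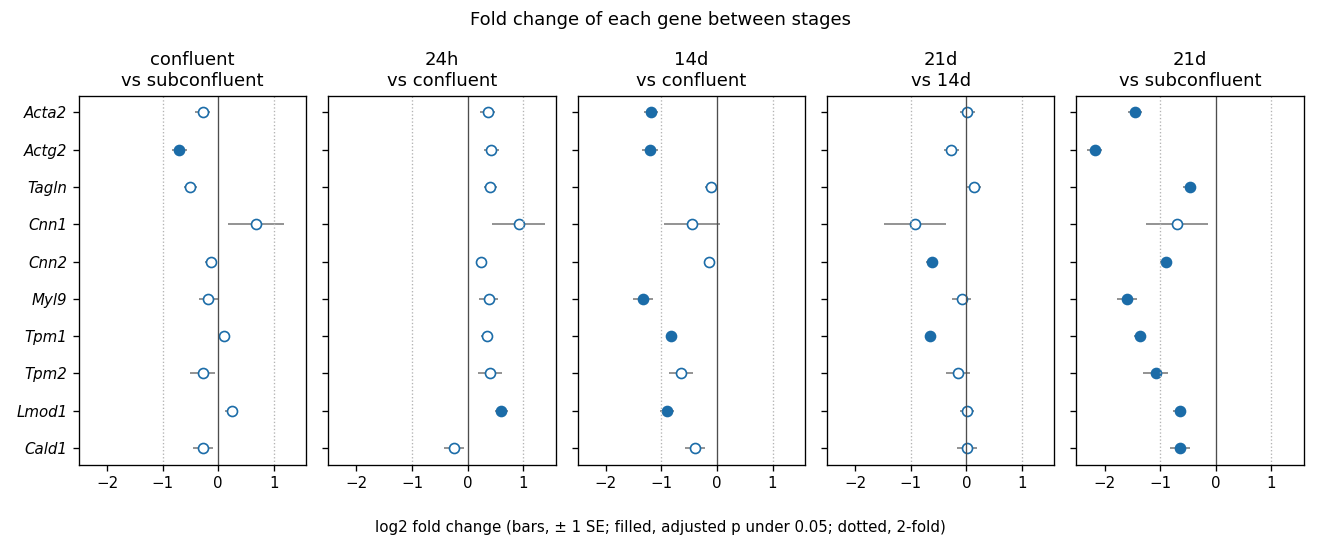
Log2 fold change (horizontal axis) of each gene (vertical axis) in 5 comparisons, with bars of ± 1 SE, filled points for an adjusted p under 0.05 and dotted lines at 2-fold. At 21d against subconfluent cells all 10 points lie left of 0, from -2.18 for Actg2 to -0.47 for Tagln, and 9 are filled.

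Counting the 10 together, a gene was called when its adjusted p over the 20808 genes tested was under 0.05 and its change more than 2-fold. All 10 passed the filter on low counts. At 14d against confluent cells 3 of the 10 were called lower (Myl9, Actg2, Acta2) and none higher, beside 3.85% of all genes called lower and 9.15% higher, and 5 passed at any fold, beside 32.1%. The median log2 fold change was -0.73 for the 10 and 0.03 for all genes. At 21d against subconfluent cells 5 of the 10 were called lower (Actg2, Myl9, Acta2, Tpm1, Tpm2) and none higher, beside 11.3% of all genes lower and 16.3% higher. At any fold 9 of the 10 passed, beside 50.7% of all genes, and the median was -0.98 against 0.04. These 2 comparisons share no samples, but both come from 1 fit of all 10 samples and both run between the early and the late library set. Over the 5 stages 9 of the 10 passed, beside 48.9% of all genes.

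In the 3 comparisons between stages with the same index sequences, 0 of the 10 were called by edgeR and by DESeq2. For confluent against subconfluent cells 1.43% of all genes were called and 3.28% passed at any fold, beside 1 of the 10 that passed (Actg2). There 2 of the 10 had an unadjusted p under 0.05, and the median was -0.23. With DESeq2, 2 of the 10 passed at confluence, beside 1865 of all 40620 genes. DESeq2 was run without the filter on low counts, and 29687 of the 40620 genes had any count. For 24h against confluent cells 2.13% of all genes were called and 5.15% passed, beside 1 of the 10 (Lmod1). In that comparison 9 of the 10 had higher fitted values, with a median of 0.39 and 6 with an unadjusted p under 0.05. Cald1 had a log2 fold change of -0.24. With DESeq2, 5 of the 10 passed at 24h, beside 2766 of all 40620 genes. For 21d against 14d 3.97% of all genes were called and 9.72% passed, beside 2 of the 10 (Tpm1 and Cnn2), which were also the 2 with an unadjusted p under 0.05. The median was -0.11.

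The tests were also run without the 24h libraries. With 1 of them left out, the other has no replicate and is assumed to vary like the other stages. Without 24h replicate B, 9 of the 10 passed in 24h against confluent cells, 8 higher and Cald1 lower, and with replicate B but without replicate A 2 passed (Tpm1 and Lmod1). The same fits gave 8629 of 21608 and 2182 of 21563 genes. Replicate A lay above replicate B in RPKM for 8 of the 10 genes and below it for Lmod1 and Cald1. When both 24h samples were left out of the fit, the genes that passed rose from 1 to 4 for confluent against subconfluent cells (Acta2, Actg2, Tagln and Cald1, all lower) and from 5 to 8 for 14d against confluent cells, where Cnn2, Tpm2 and Cald1 joined. In the same fits 3299 and 10539 of 19994 genes passed. The counts of 3 and 5 genes called at more than 2-fold were the same in these fits.

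Transcripts of Srf, Mrtfa and Mrtfb, the SRF and MRTF genes, were present at modest levels, whereas Myocd was nearly absent. Whether these factors drive the genes described here in these cells was not tested. Srf had 41.1 and 49.1 RPKM in subconfluent cells, 50.0 and 54.0 RPKM in confluent cells, 38.1 and 46.9 RPKM at 24h, 24.5 and 24.9 RPKM at 14d, and 24.0 and 24.4 RPKM at 21d. The late samples of Srf lay below all early ones, and it fell 1.81-fold at 14d against confluent cells (log2 fold change -0.86, SE 0.12, adjusted p = 0.0017 in edgeR) and 1.72-fold at 21d against subconfluent cells. Mrtfa had 16.0 and 16.5 RPKM in subconfluent cells, 15.8 and 13.5 RPKM in confluent cells, 4.40 and 14.0 RPKM at 24h, 7.72 and 8.0 RPKM at 14d, and 6.41 and 6.59 RPKM at 21d. It was lower at 21d than in subconfluent cells by 2.30-fold (adjusted p = 0.045), and its 24h replicate A was the lowest sample of all while replicate B lay within the range of the early stages. Mrtfb was at 2.00 to 3.91 RPKM and its log2 fold change at 21d against subconfluent cells was -0.43 (SE 0.19, adjusted p = 0.098). Of the 3 regulators tested, 1 was called lower at 21d against subconfluent cells (11.3% of all genes) and none at 14d against confluent cells (3.85%). Levels of transcripts do not show where the proteins were.

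The rest of the contractile machinery was read through 3 further lists. Of 10 tested actins and filament proteins, 1 (Actc1, cardiac α-actin, at most 0.381 RPKM) was called lower at 14d against confluent cells (3.85% of all genes) and 7 were called lower at 21d against subconfluent cells (11.3% of all genes), with none higher and a median log2 fold change of -1.30. The 3 largest were Tpm4 (-1.71), Tpm3 (-1.64) and Actb (-1.52). Cnn3, the acidic calponin, did not pass in either comparison and had 306 to 313 RPKM in subconfluent cells and 255 to 261 RPKM at 21d.

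Of 11 tested genes of myosin II and its control, none was called at 14d and 4 were at 21d, with Myl12a (-1.57), Myl12b (-1.17) and Myh10 (-1.10), a non-muscle heavy chain, lower and Mylk higher. At 14d against confluent cells 3.85% of all genes were called lower and 9.15% higher, and at 21d against subconfluent cells 11.3% and 16.3%. Counted in either direction, 4 of 11 is near the share of all genes, and 3 of the 4 were lower. Mylk, the myosin light chain kinase, ran opposite to its substrate Myl9. It had 13.8 and 13.3 RPKM in subconfluent cells, 16.5 and 13.6 RPKM in confluent cells, 13.2 and 23.4 RPKM at 24h, 25.2 and 24.0 RPKM at 14d, and 27.3 and 26.5 RPKM at 21d, so every late sample was above every early one. Its rise from subconfluent cells to 21d was 2.16-fold (log2 fold change 1.11, SE 0.22, adjusted p = 0.0043 in edgeR), and the row does not separate the transcripts of this gene.

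Of 15 cross-linkers and adhesion genes, 2 were called lower at 14d against confluent cells (Synpo2, -1.22, and Csrp2, -1.01) and 4 at 21d against subconfluent cells, namely Zyx (-1.72), Csrp2 (-1.57), Pdlim7 (-1.37) and Flna (-1.08), beside 3.85% and 11.3% of all genes called lower. None of the 15 was called higher at 21d, beside 16.3% of all genes. Counted in either direction, 4 of 15 is near the share of all genes, but all 4 were lower. Zyx, a focal adhesion protein, had 264 and 286 RPKM in subconfluent cells, 129 and 115 RPKM in confluent cells, 94.6 and 113 RPKM at 24h, 53.3 and 53.1 RPKM at 14d, and 80.2 and 73.6 RPKM at 21d. It was the only gene of the lists of the contractile machinery called at confluence (log2 fold change -1.20, SE 0.11, adjusted p = 0.0024 in edgeR), beside 1.43% of all genes. Smtn, smoothelin, went the other way, with log2 fold changes of 0.68 (adjusted p = 0.0025) at 14d and 0.40 (adjusted p = 0.014) at 21d. Vim, the mesenchymal intermediate filament gene, had a log2 fold change of -0.08 (SE 0.11, adjusted p = 0.56) at 21d against subconfluent cells.

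**Figure D4:**
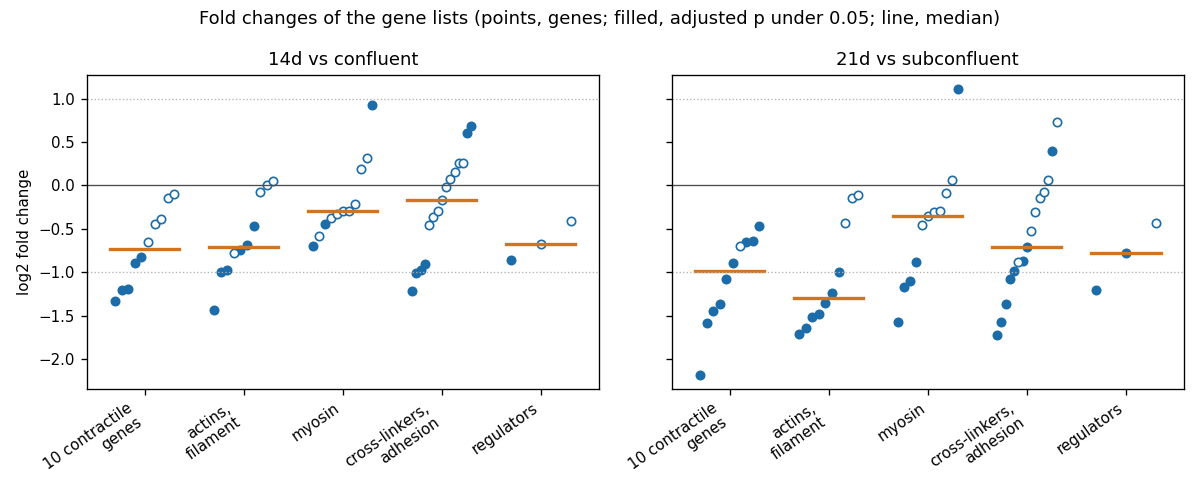
Log2 fold change (vertical axis) of the 10 contractile genes and of 4 related lists at 14d against confluent and at 21d against subconfluent cells, with 1 point per gene, filled for an adjusted p under 0.05, a line at each list's median and dotted lines at 2-fold. The medians at 21d are -0.98 for the 10 genes and -1.30 for the actins and filament proteins, and the single myosin gene above 1 is Mylk.

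Osteoblast markers ran in the other direction at 14d against confluent cells. Of the 6, 4 were called higher there (Bglap, Ibsp, Alpl, Sp7), beside 9.15% of all genes. The summed level of the 6 was 6445 to 6561 RPKM in confluent cells and 14563 to 15849 RPKM at 14d. At 21d it was 8498 to 9043 RPKM. From 14d to 21d all 6 had lower fitted values, and 2 (Alpl and Col1a1) were called lower. In that comparison 3.97% of all genes were called in either direction. At 21d against subconfluent cells the pericyte marker Cspg4 was called higher (log2 fold change 1.40, SE 0.19, adjusted p = 6.5e-04 in edgeR), beside 16.3% of all genes. The other pericyte markers tested did not pass, with Pdgfrb at 0.11 (adjusted p = 0.55) and Rgs5 at -1.17 (adjusted p = 0.28). The endothelial marker Tek (log2 fold change 3.73, adjusted p = 0.019) was also called, at levels under the summed 0.107 RPKM of its list. Of the macrophage list Lyz2 passed at 21d (log2 fold change 0.59, SE 0.16, adjusted p = 0.017), and Csf1r (-0.26) and Cd68 (0.57) did not. The part of these cell markers in the falls of the 10 genes was not tested.

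Across the 10 samples, the 9 genes other than Cnn1 had pairwise Pearson correlations of log2 CPM (counts scaled to library size) from 0.29 (Lmod1 with Cald1) to 0.996 (Acta2 with Myl9), with a median of 0.83 over 36 pairs. These samples share stages and library sets, so the values are descriptions. Among the 11992 genes averaging 5 CPM or more, the gene most like Acta2 was Myl9 (r = 0.996), followed by Brd7 (0.991), Ppp1r15b (0.987), Cdk8 (0.985) and Fabp5 (0.984). The nearest gene was Atpaf2 for Actg2 (0.989), Dpagt1 for Tagln (0.938), Uqcrc2 for Cnn1 (0.918), Id3 for Cnn2 (0.994), Acta2 for Myl9 (0.996), Aldh2 for Tpm1 (0.993), Rbm8a2 for Tpm2 (0.983), Glipr1 for Lmod1 (0.976) and Hif1a for Cald1 (0.991). Only for Acta2 and Myl9 was the nearest gene one of the 10.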

How the data were processed

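Reads of 51 bases, paired-end, were taken from total RNA of 10 MC3T3-E1 samples. The submitters' processing notes name the mm10 build, FastQC, TopHat2 2.0.9 and R 3.0.1, and the counting tool, its annotation and its strand setting are not given in the sources used here. As deposited, the count table holds whole reads per gene without normalization for 40620 genes, and the authors made the RPKM table from gene lengths and a number of reads that the counts exceed 1.44 to 1.60 times. From the deposited RPKM values 18 genes were absent, counting 1 row cut short, and their values were rebuilt from counts, lengths and that number of reads. The libraries 14d A and 21d B were given by lane and merged. The merged column was used, and its ratio to the lane sum for the 10 genes was 0.981 to 1.143 and 0.996 to 1.008. Symbols came from GENCODE vM21 (GRCm38) for 39547 identifiers.

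Counts of all 10 samples were fitted in edgeR 4.0.16 (R 4.3.3) with filterByExpr, TMM factors, 5 groups and the quasi-likelihood test, with Benjamini-Hochberg adjustment over 20808 genes. "Rose", "fell" and "passed" mean an adjusted p under 0.05, and a called gene also changed more than 2-fold. Dividing the log2 fold change by the root of F gave the SE. Shares and ratios were computed from RPKM without a test. The code was tested on simulated data.

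The 10 genes and all lists were chosen with earlier results of these data known. The text names the 10 genes, the regulators, markers at 0 and the 3 largest called changes of each list. Other genes of the lists (Cnn3, Smtn, Vim, Cspg4, Pdgfrb, Rgs5, Lyz2, Csf1r, Cd68 and Tek) were named after their values were seen. The gene most like each of the 10, and 5 for Acta2, is the one of highest Pearson r of TMM log2 CPM (prior count 2) over the 10 samples. Paralog windows of 51 bases were compared on the longest coding transcript of each gene.

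Alternatives were DESeq2 size factors, upper-quartile factors or library size alone in edgeR, DESeq2 1.42.0, limma 3.58.1 on log2(RPKM + 1) and log2(RPKM + 0.1), no filter, at least 10 counts everywhere, the 2 groups compared by themselves, leaving out the 24h samples, a block for the replicate letter, a gene length trend removed (lowess, span 0.3), the lane sum, shares of counts and not of RPKM, other thresholds, and each replicate left out. Shares of counts for families other than the actins were added after seeing the data.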

Additional observations from a re-analysis of the deposited data

How the results depend on the processing

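The number of the 10 genes called at more than 2-fold was 0 for confluent against subconfluent, 24h against confluent and 21d against 14d under every scaling, filter, tool and sample choice tried. For 14d against confluent it was 3, 4 with limma on log2(RPKM + 1), and 5 with library size alone and with limma on log2(RPKM + 0.1), where the median of all genes stood at -0.20 and -0.17. For 21d against subconfluent it was 5 and stayed between 4 and 6, with medians of all genes of -0.12 with library size alone and 0.17 with upper-quartile factors. Over the 5 stages 7 to 10 genes passed, against 9. Without the fold limit, the 5 comparisons in the order given in the plot of changes had 1, 1, 5, 2 and 9 genes in edgeR. At more than 4-fold, 14d against confluent had 0 and 21d against subconfluent 1. With the replicate letter as a block, called genes numbered 0, 0, 3, 0 and 5 and passing genes 0, 0, 5, 2 and 9, and 8 passed over the 5 stages. The letters share only a name, since the A minus B differences of 2 stages correlated at -0.18 to 0.10.

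Of 1133 alternative values of single genes, 1035 kept direction and side of the threshold, 39 lost it, 46 gained it and 13 changed sign, and the cause was not tested. For 21d against 14d the sign changed for Acta2 (-0.02) and Lmod1 (-0.02) without the length trend and for Myl9 (0.01) with library size alone. Over the left-out replicates that comparison ranged from -0.08 to 0.11 for Acta2, -0.18 to 0.02 for Myl9, -0.33 to 0.01 for Tpm2, -0.13 to 0.13 for Lmod1 and -0.02 to 0.06 for Cald1. For 14d against confluent the range was -0.23 to 0.03 for Tagln and -0.76 to 0.01 for Cnn1, and for 24h against confluent it was -0.54 to 0.02 for Cald1. The rise of Lmod1 at 24h no longer passed under 13 alternatives (0.47 to 0.67), among them limma, library size alone and only the 2 groups compared. Every family share moved by more than 1 SD when taken from counts, which are not scaled to gene length, and that of Acta2 was then lowest at 14d (20.3%). Without Actg2, Acta1 and Actc1 in the sum, the share of Acta2 was 36.9% at 24h and 26.2% at 14d.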
